A study of Homo sapiens with 61 samples.

Results

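The broad constitutive promoter H3K4me3 domains of U2OS cells were 2854 regions. U2OS is a human osteosarcoma cell line. H3K4me3 is histone H3 trimethylated at lysine 4, and it was mapped by chromatin immunoprecipitation and sequencing (ChIP-seq). A domain was taken as broad and constitutive when the peaks of all 18 H3K4me3 lists, merged wherever they touched or overlapped, formed a region of at least 5 kb that held a peak in each of the 18 lists and at least 1 annotated start site of a protein-coding gene. They were 2854 of 282418 merged regions and of 29008 regions with a peak in all 18 lists, and they took up 21.3 Mb of the 3031 Mb of the genome considered. They held the start sites of 3487 of 19962 protein-coding genes. The domains were chosen by the measured peak positions, so widths, presence and levels are given as a description. Tests are kept to differences between groups. The rule used no group labels, but a merged width can reach 5 kb through the libraries of 1 group. The tests of covered length are therefore not fully independent of the choice of domains. The study asked how the histone methyltransferase ASH1L acts in the repair of UV damage. The H3K4me3 groups used here were ASH1L-/- cells without UV, 1 h after UV and 3 h after UV, and WT cells at the same 3 stages, with 3 libraries in each group, which the labels call biological replicates. UV was a single UV-C dose of 20 J/m2, and no cell in the unirradiated groups received it. XPC, a damage sensor of nucleotide excision repair, was mapped in 19 libraries of the same 6 groups, with 4 in unirradiated WT cells and 3 in each of the other groups. ASH1L-/- cells were 1 CRISPR/Cas9 line with deletions in exon 2 and exons 11 and 12 of ASH1L, so a difference between genotypes is a difference between 2 lines of cells.

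H3K4me3 is laid down around the start sites of active genes by the SET1 and MLL methyltransferase complexes and is read by transcription and chromatin factors. At most active promoters it covers the first few nucleosomes on both sides of a start site, with a dip over the nucleosome-free DNA just before it. At some genes it spreads far into the transcribed region, and such broad domains are known from genes of cell identity, tumour suppressors and growth control. ASH1L is known as a methyltransferase of H3 lysine 36 and has also been linked to H3 lysine 4. XPC binds DNA lesions such as those made by UV light and starts global-genome repair.

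The sequences of 5 promoters are given because the results below turn on them. ASIC1 had the smallest p in WT cells after UV, and FOS in ASH1L-/- cells after UV. ZNF816 had the smallest p between unirradiated ASH1L-/- and WT cells. PDLIM4 had the smallest p for a different response in the 2 genotypes. ZNF8 lies in the widest domain whose promoter sequence lay inside it. FOS was picked after its values were seen. Each is 300 bases of RefSeq sequence on GRCh38.p14, written 5′ to 3′ on the strand of the gene, with 250 bases before and 50 from the start site on, in lower case with CpG dinucleotides in capitals. CpG counts in these windows were 22 in ASIC1 (chr12:50057920-50058219, plus strand), 30 in FOS (chr14:75278578-75278877, plus strand), 25 in ZNF816 (chr19:52962832-52963131, minus strand), 38 in PDLIM4 (chr5:132257446-132257745, plus strand) and 26 in ZNF8 (chr19:58278705-58279004, plus strand).
ASIC1: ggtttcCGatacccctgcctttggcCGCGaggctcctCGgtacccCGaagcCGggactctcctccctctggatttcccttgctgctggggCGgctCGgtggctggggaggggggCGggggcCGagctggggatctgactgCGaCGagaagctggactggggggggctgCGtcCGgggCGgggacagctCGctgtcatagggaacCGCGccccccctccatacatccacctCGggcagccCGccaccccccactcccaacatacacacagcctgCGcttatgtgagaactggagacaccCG
FOS: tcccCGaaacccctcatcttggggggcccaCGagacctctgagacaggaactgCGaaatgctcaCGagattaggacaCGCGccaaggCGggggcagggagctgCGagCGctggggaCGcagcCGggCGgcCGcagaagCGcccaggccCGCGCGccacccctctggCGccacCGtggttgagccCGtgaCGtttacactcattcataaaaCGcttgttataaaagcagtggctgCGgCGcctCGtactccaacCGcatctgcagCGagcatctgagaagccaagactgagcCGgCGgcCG
ZNF816: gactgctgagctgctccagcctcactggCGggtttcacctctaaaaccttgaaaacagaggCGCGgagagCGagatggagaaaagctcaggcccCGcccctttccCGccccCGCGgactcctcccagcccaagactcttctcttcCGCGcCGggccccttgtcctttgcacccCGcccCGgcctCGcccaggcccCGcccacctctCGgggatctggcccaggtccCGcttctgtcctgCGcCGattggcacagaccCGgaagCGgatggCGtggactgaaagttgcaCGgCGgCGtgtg
PDLIM4: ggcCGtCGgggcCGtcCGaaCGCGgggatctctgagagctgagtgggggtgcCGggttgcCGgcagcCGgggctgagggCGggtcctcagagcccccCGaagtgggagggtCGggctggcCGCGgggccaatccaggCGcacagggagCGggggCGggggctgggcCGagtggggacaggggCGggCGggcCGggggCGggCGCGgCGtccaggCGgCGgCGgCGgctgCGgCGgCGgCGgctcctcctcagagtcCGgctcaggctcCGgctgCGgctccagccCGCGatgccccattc
ZNF8: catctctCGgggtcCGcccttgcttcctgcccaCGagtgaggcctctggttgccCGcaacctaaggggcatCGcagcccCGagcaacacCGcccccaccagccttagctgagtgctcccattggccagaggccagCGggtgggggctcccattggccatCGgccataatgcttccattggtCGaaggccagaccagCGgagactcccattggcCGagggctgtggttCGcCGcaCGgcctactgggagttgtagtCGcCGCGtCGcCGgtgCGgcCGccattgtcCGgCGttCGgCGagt

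Of the 3487 genes in the domains, 2816 had a promoter in the RefSeq table of 27305 promoters. CpG was dense in these windows, with a median of 27 CpG in promoters of broad domains, 27 in promoters of narrow constitutive regions (under 5 kb, over a start site, in all 18 lists) and 14 in all promoters. The letters GGGCGG, the core of the GC box, stood on either strand of 71.6% of broad-domain promoters, 71.8% of narrow ones and 44.6% of all. The letters TATAAA stood in 6.46%, 4.69% and 11.95% of the same sets, and FOS was one of the broad domains with them. CCAAT was found in 39.5%, 35.4% and 35.7%, TGACGTCA (the CRE) in 4.12%, 3.05% and 1.98%, and TGACTCA (the AP-1 element) in 3.20%, 2.62% and 4.92%. CACTTCCG, an ETS-type element, stood in 8.67% of broad-domain promoters, 8.35% of narrow ones and 4.25% of all, in 17.5% of 160 zinc finger promoters within broad domains and in 20.0% of 45 ribosomal protein promoters within them. All letters were searched on both strands, no motif contains another, and a match describes the letters of the window only.

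The 18 H3K4me3 lists held 72984 to 142688 peaks and 70.1 to 132 Mb of covered DNA. Depth, recovered from the deposited fold enrichments and p-values, was 2.57 fragments over an average base in the shallowest library (WT, 3 h, replicate 2) and 4.40 in the deepest (WT, 1 h, replicate 3). It averaged 3.41 ± 0.142, 3.37 ± 0.234 and 3.42 ± 0.491 in ASH1L-/- cells without UV and at 1 h and 3 h, and 3.31 ± 0.667, 3.89 ± 0.445 and 3.73 ± 1.00 in WT cells (SD, n = 3 libraries). Of 10 U2OS marker genes, VIM, COL1A1, FN1, SPARC, RUNX2 and THY1 lay in broad domains and PRRX1 in a narrow one. COL1A2, TWIST1 and ALPL, also known from bone-forming cells, had no region in any list. Among markers of other cell types, EPCAM, IKZF1, CDX2, SYT1, RBFOX3 and SLC17A7 had a narrow region in all 18 lists. The start of ASH1L itself lay in a narrow constitutive region of 3.33 kb (chr1:155562000-155565327) with 2.98 ± 0.0665 kb under peaks in unirradiated ASH1L-/- cells and 2.78 ± 0.153 kb in unirradiated WT cells (SD, n = 3). It lies outside the deleted exons and so checks nothing about the deletion.

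Merged width was not the same as the length of DNA under peaks in any 1 library. Broad domains had a median width of 6.47 kb (10th percentile 5.23, 90th percentile 10.4, widest 48.7 kb), a mean over libraries of 5.15 kb under peaks for the median domain, 2 peaks per library and a longest single peak of 4.45 kb. The 8631 narrow constitutive promoters had medians of 3.08 kb of width, 2.44 kb under peaks, 1.17 peaks and a longest peak of 2.27 kb. The 1825 constitutive regions of 5 kb or more without a start site had 6.57 kb of width but 4.03 kb under peaks, in 3.56 peaks whose longest was 2.48 kb. Broad domains over start sites were therefore made of longer peaks than equally wide regions elsewhere, as medians. Of the 2854 domains, 1286 had a mean of under 5 kb under peaks, 270 had a single peak of 5 kb or more in each of the 18 lists, and 584 had one in none.

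**Figure D1:**
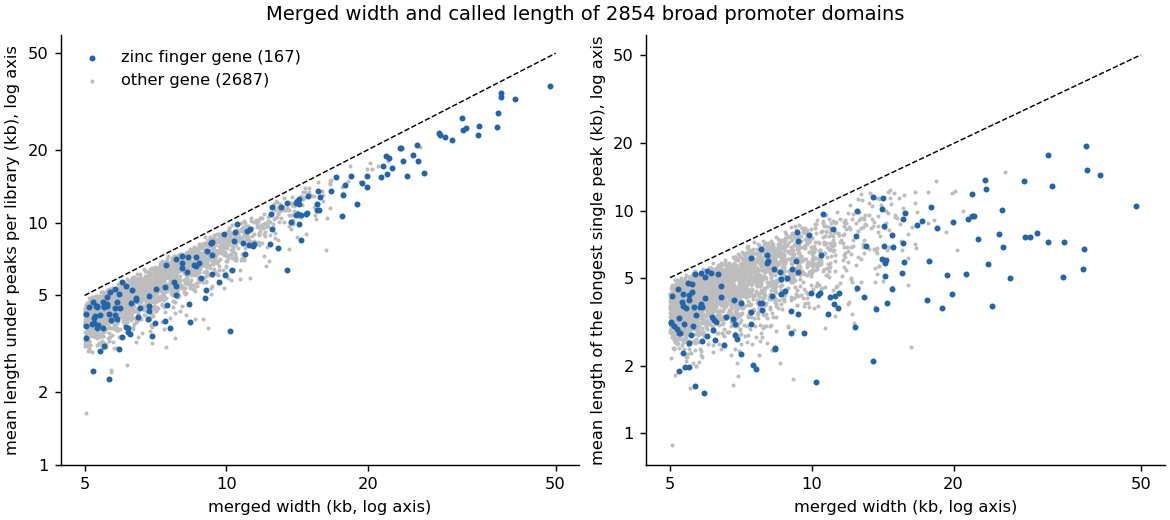
Merged width of each of the 2854 broad domains in kb (horizontal, log scale) against mean kb under peaks over the 18 lists (left) and mean length of the longest single peak (right, both log scales); the 167 domains over zinc finger genes are blue, the other 2687 grey, and the dashed line marks equality. The widest domains lie nearer to the line on the left than on the right, so they were built of several peaks.

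The threshold of 5 kb cut through a continuous range. Just inside it were RPL14 and RLIM at 5.000 kb and PPDPF at 5.001 kb, with 3.93, 3.77 and 4.25 kb under peaks. Just outside were USP34 at 4.999, KPNA3 at 4.998 and BTBD10 at 4.995 kb, with 4.20, 3.88 and 3.74 kb under peaks. The number of domains was 4703 at 4 kb, 1775 at 6 kb, 757 at 8 kb and 335 at 10 kb.

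Broad domains shared several features that the rule did not set directly. The median highest fold enrichment was 11.1 in broad domains, 9.14 in narrow constitutive promoters and 5.48 in wide regions without a start site. Their DNA held fewer CpG, 2.87 per 100 bases against 4.23 in narrow promoters and 0.899 in wide regions without a start site, and a GC content of 47.2% against 53.5% in narrow promoters. A start site of a long non-coding RNA lay in 974 domains (34.1%, against 19% of narrow promoters). In the same way 554 domains (19.4%, against 9.002%) held 2 or more protein-coding start sites, up to 6. Per 100 start sites, chromosomes 18 (20.3), 5 (19.2) and 4 (18.9) had the most domains and chromosomes X (8.03) and 16 (10.3) the fewest. A wider region has more room for start sites and for DNA outside the CpG-dense core, and a maximum taken over more DNA can be higher. No test of these differences was made.

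The widest domains were those of zinc finger genes, which encode mostly DNA-binding repressors of the KRAB family and lie in clusters on chromosome 19. The 12 widest were all on chromosome 19 and all held zinc finger genes, with ZNF529 at 48.7 kb, ZNF8 at 41.0, ZNF274 at 38.3, ZNF283 at 38.2, ZNF583 at 37.8, ZNF667 at 37.6, ZNF569/ZNF570 at 34.3, ZNF841 at 34.2, ZNF221 at 32.3, ZNF480 at 31.8, ZNF582 at 31.7 and ZNF549 at 30.1 kb. Zinc finger genes were in 3.71% of the 1079 domains of 5 to 6 kb, 2.65% of the 1018 of 6 to 8 kb, 5.45% of the 422 of 8 to 10 kb, 12.6% of the 261 of 10 to 15 kb, 37.5% of the 40 of 15 to 20 kb and 85.3% of the 34 of 20 kb or more. This zinc finger group was added after values were seen. In all, 167 broad domains held such a gene (5.85%, against 3.44% of narrow promoters), 79 of them on chromosome 19.

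These domains were long but fragmented. Zinc finger domains had medians of 9.28 kb of width and 7.06 kb under peaks in 3.67 peaks, and a longest peak of 4.43 kb. These were 6.42 kb, 5.13 kb, 1.94 peaks and 4.45 kb in the other 2687 domains. They were poorer in CpG, at 1.83 per 100 bases against 2.93. The 34 domains of 20 kb or more had a median of 20.5 kb under peaks in 10.6 peaks, and a longest peak of 9.33 kb. In 16 of 28 of them with 1 start site (57.1%) the whole gene lay inside the domain. ZNF274, ZNF283, ZNF841, ZNF221, ZNF480 and ZNF582 were enclosed in this way. The same was true of 30 of 138 zinc finger domains (21.7%), of 12 of 39 ribosomal protein domains (30.8%) and of 176 of all 2300 broad domains with 1 start site (7.65%, against 1.95% of 7854 narrow promoters). ZNF8 was an exception, as 8.14% of its domain (chr19:58241305-58282290) lay in the gene and 14% of the gene in the domain.

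Genes of housekeeping, growth control and mesenchymal identity were frequent in broad domains, and markers of other lineages were not. Against 17.5% of all protein-coding genes, 58 of 74 ribosomal protein genes (78.4%), 18 of 27 p53 targets (66.7%), 25 of 39 genes of the TGFβ, BMP and WNT pathways (64.1%), 25 of 40 genes of replication and the cell cycle (62.5%), 25 of 41 immediate early genes (61.0%), 25 of 46 tumour suppressors (54.3%) and 22 of 42 mesenchymal genes (52.4%) lay in one. Examples were FOSL2, a subunit of AP-1 (19.9 kb), SETD1B, a methyltransferase of H3 lysine 4 (16.6 kb, shared with RHOF), CCND2, a D-type cyclin (15.7 kb), CDKN1B, an inhibitor of cyclin-dependent kinases (15.0 kb), INHBA, a subunit of activin (13.9 kb), and SMAD7, an inhibitor of TGFβ signalling (13.3 kb). The lists of oncogenes (16 of 36), H3 lysine 4 methylation with ASH1L and FACT (10 of 25), nucleotide excision repair (9 of 36) and HOX genes (6 of 39) had lower shares, and those of repair and HOX genes were the lowest of these 4. Epithelial markers gave 1 of 16 (KRT18), neuronal markers 1 of 13 (TUBB3), and blood (0 of 12) and hepatocyte or gut markers (0 of 9) none.

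Broad domains reached into the gene more than away from it. In the 2300 domains with 1 protein-coding start site, the length under peaks was taken as the median over domains, averaged over libraries. It was 1.07 kb before and 3.67 kb after the start site in unirradiated ASH1L-/- cells, and 1.08 and 3.45 kb in unirradiated WT cells. In narrow promoters these were 0.624 and 1.56 kb in ASH1L-/- cells and 0.640 and 1.45 kb in WT cells. The downstream side was the longer one in 92.4 to 93.6% of broad domains, over the means of the 6 groups. It was also the longer one in 86.9 to 88.6% of narrow promoters, over single libraries. The median domain overlapped 13.7% of its gene, whose median length was 39.3 kb, and 81.5% of the domain lay inside the gene.

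**Figure D2:**
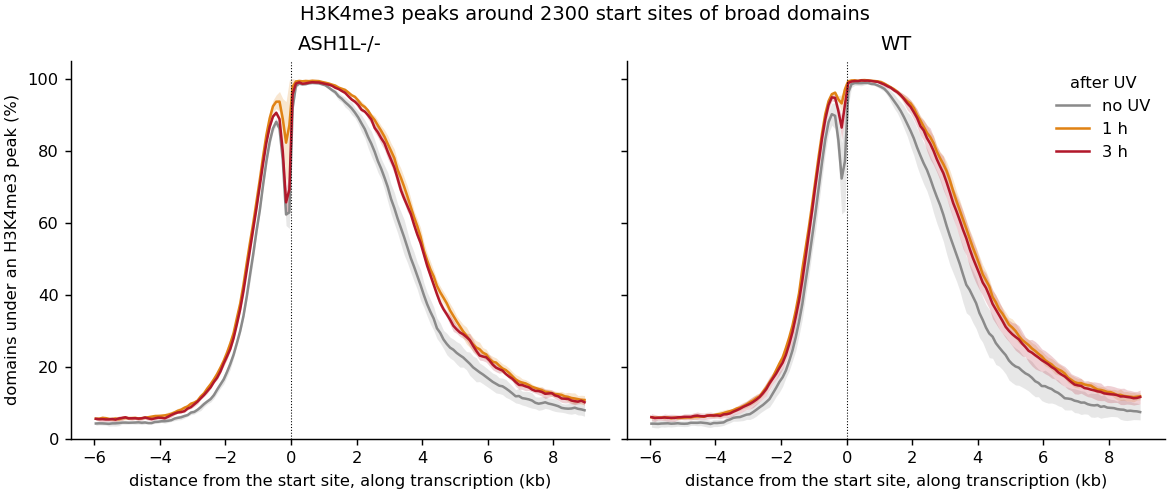
Share of the 2300 broad domains with 1 protein-coding start site that were under an H3K4me3 peak (vertical, %) by distance from that start site in kb (horizontal), in ASH1L-/- (left) and WT cells (right); lines are the means of 3 libraries without UV, 1 h and 3 h after UV, and shading is the SD. Coverage extends farther on the downstream side, and a notch just before the start site is deepest without UV and shallowest at 1 h. In ASH1L-/- cells the 3 h line comes close to the line without UV.

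The dip before the start site was shallowest at 1 h after UV in both genotypes, and deeper in ASH1L-/- than in WT cells, on average. At 50 bp before the start site, peaks lay over 66.0, 57.8 and 64.9% of broad domains without UV, 98.1, 89.8 and 73.5% at 1 h and 72.7, 72.3 and 62.9% at 3 h in ASH1L-/- cells. In WT cells the shares were 86.1, 61.3 and 84.0% without UV, 97.6, 98.6 and 95.3% at 1 h and 95.8, 89.3 and 93.5% at 3 h. All 6 irradiated WT libraries lay above all 3 unirradiated ones, whereas the 3 h ASH1L-/- libraries overlapped the unirradiated ones. Narrow promoters moved alike, with means of 67.5, 88.2 and 74.2% in ASH1L-/- cells and 79.2, 95.8 and 91.6% in WT cells without UV, at 1 h and at 3 h. Domain by domain, 45 of 2300 were without a peak there in all 3 unirradiated ASH1L-/- libraries and under one in all 6 irradiated ones, with 1 the reverse, and 60 and 0 were in WT cells. Far more, 1041 in ASH1L-/- and 1361 in WT cells, were under a peak there in all 9 libraries. The same counts are not given for narrow promoters, so they cannot be read as a trait of broad domains. These shares were not tested. At 3 kb after the start site, coverage was 68.3 ± 4.39, 81.1 ± 2.37 and 78.9 ± 1.55% in ASH1L-/- cells and 60.4 ± 7.66, 75.5 ± 2.49 and 72.5 ± 4.45% in WT cells (SD, n = 3), against 4.04 to 10.0% of narrow promoters.

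Covered length after UV was greater in broad domains in both genotypes, a direction that turned when lists were scaled to an equal total covered length (median changes of -0.19 kb in ASH1L-/- and -1.16 kb in WT cells). The median domain had 4.91 ± 0.175, 5.55 ± 0.0888 and 5.41 ± 0.0212 kb under peaks in ASH1L-/- cells without UV and at 1 h and 3 h, and 4.69 ± 0.338, 5.35 ± 0.102 and 5.23 ± 0.204 kb in WT cells (SD, n = 3). Peaks within a domain also joined. A single peak made up 21.2 ± 0.121, 39.0 ± 11.6 and 26.7 ± 4.24% of domains in ASH1L-/- cells and 27.3 ± 5.56, 44.3 ± 4.77 and 40.4 ± 7.15% in WT cells. The total length of DNA under peaks in the whole genome moved with this, at 82.3 ± 8.81, 94.2 ± 13.6 and 95.6 ± 12.5 Mb in ASH1L-/- cells and 80.1 ± 11.9, 109 ± 13.9 and 119 ± 18.9 Mb in WT cells, and its part in the results was not tested. In a population of cells, more cells with the mark and more of the mark in each cell cannot be told apart.

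**Figure D3:**
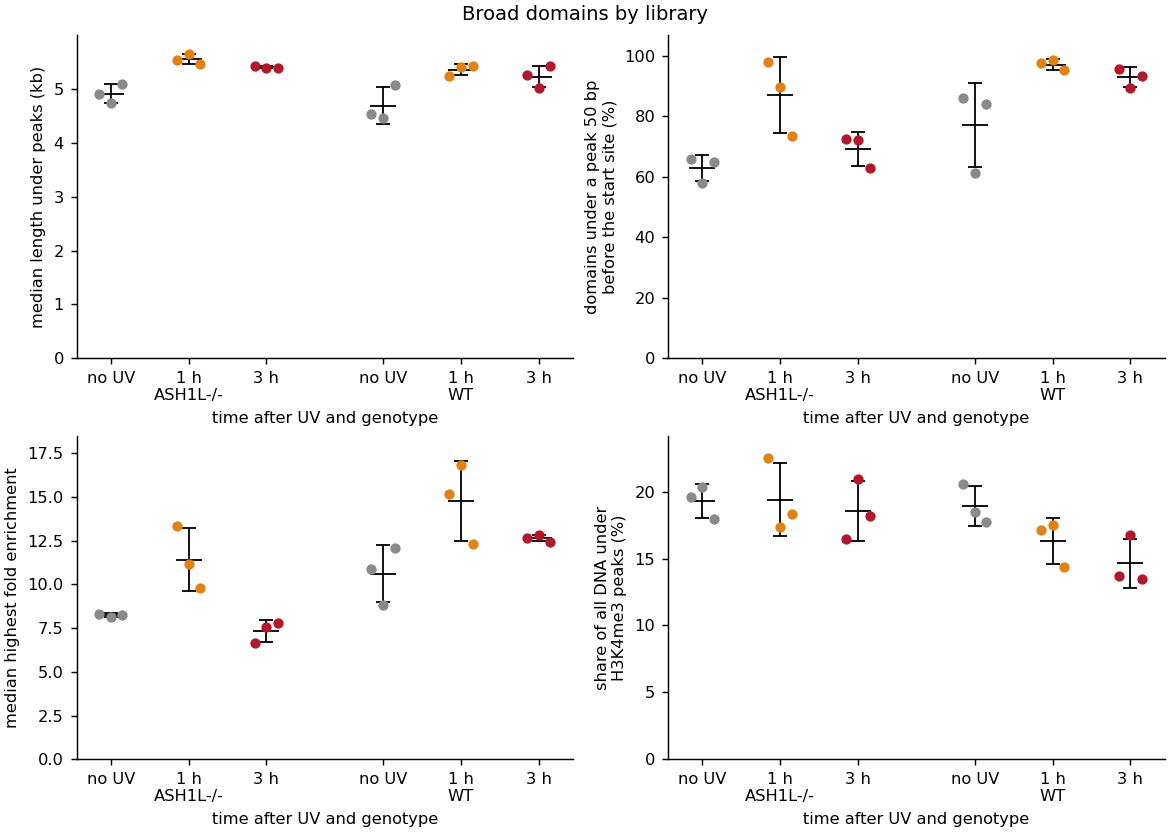
Values of the broad domains in each of the 18 H3K4me3 libraries (points) with the mean and SD of each group of 3, ASH1L-/- on the left of each panel: median kb under peaks, share (%) of domains under a peak 50 bp before the start site, median highest fold enrichment, and share (%) of all covered DNA that lay in broad domains. Covered length, not scaled, is higher after UV in both genotypes, while the share of all covered DNA in broad domains is lower in irradiated than in unirradiated WT libraries on average.

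In WT cells, 628 of the 2854 broad domains gained covered length after UV and 0 lost it, with the 1 h and 3 h libraries averaged. Over all 131511 regions tested, 9.29% gained and 0.135% lost, and 8.63% of narrow promoters gained. The median change was +0.59 kb in broad domains, +0.25 kb in narrow promoters and +0.16 kb over all regions, and 2799 of the 2854 domains had a positive estimate. These changes were not divided by length. Unirradiated WT libraries had medians of 4.46 to 5.08 kb under peaks in broad domains and 2.03 to 2.35 kb in narrow promoters. The merged width that chose the domains also takes in DNA covered only after UV, so the contrasts with narrow promoters are not independent of the rule. At an unadjusted p under 0.05 the counts were 1500 gains and 0 losses, with no share of all regions at that unadjusted p to set beside them. At 1 h 313 gained and 0 lost (background 3.28% and 0.0586%), and 3 h gave 367 and 0 (background 9.88% and 0.0912%). The count rested on single libraries, at 156, 141 and 1128 gains without unirradiated WT replicates 1, 2 and 3, and 394 without 3 h WT replicate 1. After scaling every list to an equal total covered length the direction turned, with 6 gains and 68 losses (background 2.41% and 0.37%), a median change of -1.16 kb in broad domains and +0.04 kb over all regions. With peaks kept only where they met the caller's p at the lowest depth of any library, 617 gained and 0 lost.

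ASIC1, which encodes a proton-gated sodium channel, had the smallest p of all broad domains after UV in WT cells. Its domain (chr12:50056470-50064236) had 2.17, 2.24 and 2.87 kb under peaks without UV, 7.29, 6.27 and 6.77 kb at 1 h and 6.89, 6.67 and 5.78 kb at 3 h in WT cells. All irradiated WT libraries were above all unirradiated ones, and the change was +4.18 ± 0.401 kb (SE, adjusted p = 5.959e-05), with a call under each alternative run. In ASH1L-/- cells the values were 2.90, 3.79 and 3.36 kb without UV, 3.11, 5.38 and 3.72 kb at 1 h and 2.11, 2.31 and 2.62 kb at 3 h. These groups overlapped, and the change was -0.14 ± 0.401 kb (adjusted p = 0.9388).

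Among gains that passed the threshold in WT cells, the 5 longest were in zinc finger domains. Gains in kb were not divided by the length of the domain. ZNF841 had 10.2, 11.7 and 20.3 kb without UV, 19.5, 25.4 and 27.2 kb at 1 h and 29.4, 20.9 and 27.3 kb at 3 h in WT cells. Its unirradiated replicate 3 lay between the irradiated values. The gain was 10.9 ± 2.62 kb (adjusted p = 0.01782). It missed the threshold without unirradiated WT replicate 1 (8.95 kb) or 2 (9.71 kb), with lists scaled to an equal total (4.62 kb), at a fold enrichment of 5 (3.97 kb) and at 1 h alone (9.98 kb). ZNF667 gained 10.0 kb (adjusted p = 0.03739), ZNF480 8.76 kb (0.02054), ZNF121 7.79 kb (0.009543) and ZNF260 7.03 kb (0.03108). Each of these 4 also missed it when scaled, at 2.91, 1.60, 1.64 and 1.31 kb. Among the 167 zinc finger domains 69 gained and 0 lost, with a median of +1.56 kb that became -0.55 kb when lists were scaled. Among the 34 domains of 20 kb or more 18 gained, with a median of +5.71 kb that became -1.11 kb. ZNF8, for its part, had 23.4, 19.7 and 32.5 kb without UV, 35.5, 36.8 and 37.0 kb at 1 h and 37.9, 33.9 and 38.0 kb at 3 h in WT cells, and did not pass (adjusted p = 0.06078).

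Immediate early genes, which cells switch on within minutes of a stress or growth signal, gained covered length in WT cells in 14 of their 25 domains, with a median of +0.84 kb that became -1.17 kb, with 2 gains, when lists were scaled. The gains were 4.42 kb at FOSL2, 1.704 kb at FOS and 1.67 kb at FOSB, all subunits of AP-1. They were 3.51 kb at NR4A1, an orphan nuclear receptor, 3.50 kb at ATF3, a stress transcription factor, 1.23 kb at EGR1, a growth-response transcription factor, 1.05 kb at DUSP1, a MAP kinase phosphatase, and 1.04 kb at MYC. FOS (chr14:75276513-75283180) had 4.58, 4.48 and 4.32 kb without UV, 6.05, 6.13 and 5.80 kb at 1 h and 6.54, 6.25 and 6.21 kb at 3 h in WT cells (adjusted p = 8.481e-05), with no overlap between irradiated and unirradiated libraries.

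In the other lists no domain lost covered length in WT cells, and their gains stand beside the 628 of 2854 over all broad domains. With lists scaled to an equal total the median of each was negative, between -0.86 kb (p53 targets) and -1.88 kb (oncogenes), with 0 gains. Ribosomal protein domains gained in 13 of 58 (22.4%, near the share of all broad domains, with a median of +0.71 kb, or -1.21 kb when scaled). HOX domains, which set body position in development, gained in 4 of 6, among them HOXC10 by 1.54, HOXC11 by 1.39 and HOXC9 by 1.25 kb. Among p53 targets 4 of 18 gained, with AEN, a nuclease, at 2.57 kb and CDKN1A, the cell cycle inhibitor p21, at 1.89 kb. Mesenchymal genes gained in 5 of 22, among them COL1A1, a chain of type I collagen, at 1.87 kb. Oncogenes gained in 4 of 16 (CCND2 3.04 kb), and TGFβ, BMP and WNT genes in 4 of 25 (TGFB1 1.49 kb). There were gains in replication and cell cycle genes in 3 of 25 (AURKA, a mitotic kinase, 2.48 kb) and tumour suppressors in 2 of 25. The list of H3 lysine 4 methylation gained in 2 of 10, at SETD1B (1.91 kb) and at KDM6B, a demethylase of another H3 lysine (1.81 kb). No domain of the 9 repair genes passed, with a median of +0.50 kb. KRTAP10-8/KRTAP10-9, hair keratin-associated genes, gained 6.21 kb (adjusted p = 0.0006948).

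In ASH1L-/- cells, 321 broad domains gained covered length after UV and 2 lost it, against 1.82% and 0.874% of all regions tested. The median change was +0.56 kb, and 2638 domains had a positive estimate. At 1 h 84 gained and 0 lost (background 0.563% and 0.357%), and at 3 h 248 gained and 12 lost (background 2.03% and 0.715%). Here too single libraries counted: 122, 76 and 175 gained without unirradiated ASH1L-/- replicates 1, 2 and 3, 172 without 1 h replicate 2 and 176 without 3 h replicate 1. When lists were scaled to an equal total, 33 gained and 4 lost (background 1.28% and 2.01%), and the median became -0.19 kb. Losses numbered from 1 to 5 when a library was left out, and were 7 among regions with a peak in all 18 lists.

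FOS had the smallest p in ASH1L-/- cells, with 3.97, 3.82 and 4.08 kb without UV, 5.76, 5.92 and 5.29 kb at 1 h and 5.34, 5.26 and 5.53 kb at 3 h. All irradiated libraries lay above all unirradiated ones, for a gain of 1.56 kb (adjusted p = 0.0005057). ZNF841 gained 11.8 ± 2.62 kb (adjusted p = 0.02578), at 17.6, 12.8 and 19.8 kb without UV, 24.9, 27.9 and 28.9 kb at 1 h and 33.1, 28.0 and 28.3 kb at 3 h. The groups did not overlap, although the call was lost when any of 4 libraries was left out and at a fold enrichment of 5. ZNF569/ZNF570 gained 9.94 kb (adjusted p = 0.04461), ZNF480 9.82 kb (0.02505), ZNF260 9.08 kb (0.01976) and ZNF614 8.42 kb (0.03588). Each of these 4 lost its call in alternative runs, with adjusted p up to 0.4787, 0.1362, 0.8308 and 0.2017 in the same order. ZNF569/ZNF570 lost it without any of 12 of the 18 libraries, and the lowest estimate for ZNF260 was 1.04 kb. Zinc finger domains gained in 46 of 167 (median +1.66 kb, and +0.63 kb with 21 gains when scaled), and domains of 20 kb or more in 11 of 34 (median +5.54 kb, and +2.80 kb when scaled). Zinc finger domains thus were 21 of the 33 that gained in ASH1L-/- cells with scaled lists, and 1 of the 6 that gained in WT cells.

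Immediate early domains gained in 3 of 25 in ASH1L-/- cells, with ATF3 at 2.56, FOS at 1.56 and FOSB at 0.96 kb (median +0.53 kb, or -0.32 kb when scaled). None of the 25 differed between genotypes in the test of the difference itself, in which 2 of the 25 estimates were positive and the median was -0.37 kb. Other gains were 2.65 kb at CDC25A and 1.69 kb at CDC6, of the cell cycle, 2.56 kb at MDM2, the ubiquitin ligase of p53, 1.71 kb at SKIL, 1.63 kb at the DNA ligase LIG3, 1.58 kb at YAP1 and 1.67 kb at RPS10. Ribosomal protein domains gained in 5 of 58 and HOX domains in 0 of 6 (medians +0.57 and -0.04 kb). The 2 domains that lost covered length were PDLIM4, a PDZ and LIM domain protein of the actin cytoskeleton, by 2.60 ± 0.445 kb (adjusted p = 0.006764), and SH3PXD2B, an adaptor of podosomes, by 0.77 ± 0.197 kb (adjusted p = 0.04717). The PDLIM4 call was lost at a fold enrichment of 5 (-0.67 kb) and at 1 h alone (-1.76 kb), and the SH3PXD2B call without any of 14 of the 18 libraries.

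Without UV, 70 broad domains were longer and 8 shorter in ASH1L-/- than in WT cells, against 0.646% and 0.173% of all regions tested. The median difference was +0.22 kb in broad domains and 0.00 kb over all regions, and it became -0.05 kb, with 21 longer and 69 shorter, when peaks under a fold enrichment of 5 were dropped. Scaled lists gave 30 longer and 16 shorter (background 1.8% and 1.01%). The longer domains numbered 26 and 29 without WT replicates 1 and 2, and 28 and 30 without ASH1L-/- replicates 1 and 3, and the shorter ones from 3 to 11.

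ZNF816, which shares a start region with the read-through gene ZNF816-ZNF321P, had 7.97, 7.28 and 9.04 kb in unirradiated ASH1L-/- cells, against 2.60, 3.05 and 3.09 kb in unirradiated WT cells. The difference of 5.18 ± 0.374 kb (adjusted p = 3.055e-06) had no overlap between libraries. The domain (chr19:52953775-52964066) remained longer after UV, at 9.72 ± 0.162 and 9.91 ± 0.373 kb at 1 h and 3 h in ASH1L-/- cells against 4.17 ± 0.332 and 3.45 ± 0.459 kb in WT cells (SD, n = 3). At a fold enrichment of 5 the difference was 0.414 kb and missed the threshold. LIMCH1, an actin and myosin regulator, had 7.87, 7.83 and 8.39 kb in ASH1L-/- cells against 2.60, 2.12 and 2.73 kb in WT cells. The difference of 5.55 ± 0.454 kb (adjusted p = 1.52e-05) was called under each alternative run. PTGFR, the receptor of prostaglandin F2α, had 7.14, 7.39 and 7.46 kb against 2.76, 2.64 and 4.14 kb. Its difference of 4.14 kb (adjusted p = 0.001201) missed the threshold with peaks kept at the lowest depth of any library (3.06 kb). PRR16 differed by 4.19 kb (adjusted p = 0.0006076) and LBH, a transcription cofactor of development, by 4.39 kb (adjusted p = 0.01621). LBH turned to -1.57 kb at a fold enrichment of 5.

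Among shorter domains, COL4A1/COL4A2, the divergent pair of type IV collagen genes, had 4.74, 5.08 and 5.11 kb in unirradiated ASH1L-/- cells against 7.83, 9.25 and 8.42 kb in WT cells. The difference of -3.52 ± 0.649 kb (adjusted p = 0.01636) missed the threshold without WT replicate 2 (-3.15 kb) or ASH1L-/- replicate 1 (-3.41 kb) or 3 (-3.59 kb). PKIB, an inhibitor of protein kinase A, had 5.01, 4.60 and 4.74 kb against 7.30, 7.75 and 7.18 kb, and its difference of -2.63 ± 0.343 kb (adjusted p = 0.001476) was called under each alternative run. IL15, a cytokine, differed by -1.72 kb (adjusted p = 0.002751), CDH11, a mesenchymal cadherin, by -1.85 kb (0.03316) and RAP2A, a small GTPase, by -1.67 kb (0.04254). RAP2A lost its call with lists scaled (-2.25 kb) and without any of 13 libraries, and CDH11 without any of 5. At a fold enrichment of 5 COL4A1/COL4A2 (-6.49 kb), IL15 (-2.78 kb) and CDH11 (0 kb) missed the threshold. In the lists, HOXC10 (+2.57 kb), HOXC11 (+2.13 kb) and HOXB6 (+1.04 kb) were longer in ASH1L-/- cells (the median of the 6 HOX domains was +0.85 kb with scaled lists, with 0 calls), as was CUL4B, a scaffold of the ubiquitin ligase that acts with DDB2 in repair (8.42, 8.13 and 8.90 kb against 5.01, 5.10 and 6.23 kb, adjusted p = 0.000947).

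The response to UV itself differed between genotypes in 58 broad domains, in 55 of which the change was lower and in 3 higher in ASH1L-/- cells, against 3% and 0.125% of all regions tested. The median difference over broad domains was 0.00 kb. The 55 became 29, 26 and 132 without unirradiated WT replicates 1, 2 and 3, and 36 and 30 without unirradiated ASH1L-/- replicates 1 and 3. When lists were scaled to an equal total the split turned to 4 lower and 14 higher, with a median of +1.04 kb. The share of all regions is not given for these scaled counts, so they cannot be read as a trait of broad domains.

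PDLIM4 (chr5:132256634-132266969) moved in opposite directions. It had 8.81, 9.44 and 8.49 kb without UV, 7.49, 7.77 and 6.22 kb at 1 h and 5.23, 5.74 and 5.42 kb at 3 h in ASH1L-/- cells. In WT cells it had 5.10, 6.87 and 7.20 kb without UV, 8.05, 8.82 and 8.84 kb at 1 h and 9.72, 9.21 and 8.76 kb at 3 h. No irradiated library overlapped the unirradiated ones of its genotype, and the changes of -2.60 kb in ASH1L-/- cells and +2.51 kb in WT cells (adjusted p = 0.003364) differed by -5.11 ± 0.629 kb (adjusted p = 0.0004384). It missed the threshold with lists scaled and, at -2.69 kb, at a fold enrichment of 5.

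LEMD2, an inner nuclear membrane protein, had 9.62, 7.72 and 9.08 kb without UV, 8.23, 9.15 and 7.50 kb at 1 h and 7.43, 6.99 and 6.31 kb at 3 h in ASH1L-/- cells. In WT cells it had 4.46, 4.86 and 6.48 kb, 9.48, 9.12 and 9.01 kb, and 10.1, 8.24 and 8.997 kb at the same stages. The unirradiated ASH1L-/- libraries thus stood near the irradiated WT libraries, and the changes differed by -5.08 ± 0.751 kb (adjusted p = 0.001496). DYNLL2, a dynein light chain, had the same order, at 9.64 ± 0.284, 8.90 ± 0.604 and 7.76 ± 0.136 kb in ASH1L-/- cells and 7.04 ± 0.875, 9.97 ± 0.402 and 10.2 ± 0.526 kb in WT cells (SD, n = 3; difference -4.38 kb, adjusted p = 0.0004694). KRTAP10-8/KRTAP10-9 had 2.76, 3.05 and 6.10 kb in unirradiated ASH1L-/- cells and 6.76, 7.53 and 8.88 kb in unirradiated WT cells. The difference between responses was -6.89 ± 1.22 kb (adjusted p = 0.005396). ASIC1, described above, differed by -4.32 kb (adjusted p = 0.0007107). With lists scaled the differences of DYNLL2 (-2.95 kb) and KRTAP10-8/KRTAP10-9 (-3.88 kb) missed the threshold, and at a fold enrichment of 5 those of LEMD2 (-1.73 kb), DYNLL2 (-5.01 kb) and ASIC1 (-3.92 kb) did.

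**Figure D4:**
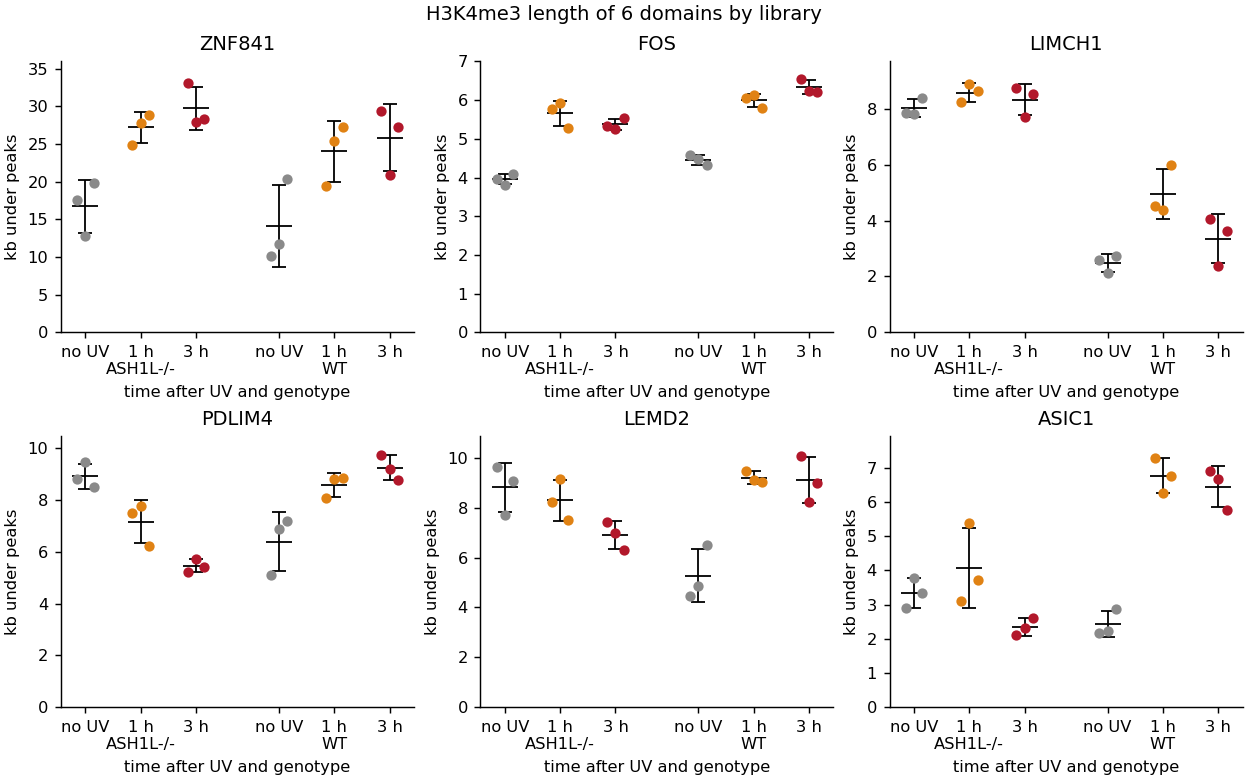
Kb under H3K4me3 peaks (vertical) in 6 broad domains, ZNF841, FOS, LIMCH1, PDLIM4, LEMD2 and ASIC1, by library (points) with the mean and SD of 3 libraries, for ASH1L-/- (left) and WT cells (right) without UV, 1 h and 3 h after UV. FOS is higher after UV in both genotypes, LIMCH1 is higher in ASH1L-/- cells at each stage, PDLIM4 moves in opposite directions, and ASIC1 is higher after UV in WT cells.

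HOXC10 and HOXC11 were among the domains with a lower response in ASH1L-/- cells, by -2.16 and -2.06 kb, as was AXIN2, a negative regulator of WNT signalling, by -1.79 kb. HOXC11 had 6.93, 6.52 and 6.75 kb in unirradiated ASH1L-/- cells, against 4.55, 4.22 and 5.04 kb in unirradiated WT cells. The 3 domains with a higher response in ASH1L-/- cells were ZNF814 (+1.77 kb, adjusted p = 0.04608), NUP42, a nuclear pore protein (+1.10 kb, adjusted p = 0.04711), and ZNF384, a zinc finger protein (+1.00 kb, adjusted p = 0.02607). ZNF814 lost its call without any of 13 and NUP42 without any of 15 of the 18 libraries, and at a fold enrichment of 5 NUP42 turned to -0.03 kb.

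The highest fold enrichment in each domain, which compares ChIP with input at the strongest point, was higher after UV at 1 h in both genotypes and at 3 h in WT cells. Its median over broad domains was 8.24 ± 0.101, 11.4 ± 1.78 and 7.34 ± 0.621 in ASH1L-/- cells and 10.6 ± 1.64, 14.8 ± 2.289 and 12.6 ± 0.188 in WT cells without UV, at 1 h and at 3 h (SD, n = 3). Narrow promoters had 6.46, 9.68 and 6.04 in ASH1L-/- cells and 8.72, 12.8 and 10.1 in WT cells, and so followed the same course. The most enriched domains on average were MRPL13/MTBP (29.0), CBX5/HNRNPA1 (27.4) and ANKRD1 (26.2), and the least PLA2G4E (3.27), LDLRAD4 (3.63) and FN3K (3.94).

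On the log2 scale, 808 broad domains rose and 7 fell after UV in WT cells, against 31.6% and 0.128% of the 29008 regions tested, with medians of +0.37 in broad domains and +0.38 over all regions. At 1 h 832 rose and 2 fell (background 27.7% and 0.0896%), and at 3 h 486 rose and 25 fell (20.9% and 0.455%). In ASH1L-/- cells 157 rose and 25 fell (7.31% and 0.845%), with 755 and 7 at 1 h (22.4% and 0.676%) and 24 and 100 at 3 h (2.14% and 2.16%). Rises in WT cells numbered 204 without unirradiated replicate 2 and 535 without 1 h replicate 2. Rises in ASH1L-/- cells numbered 45, 43 and 41 without unirradiated replicates 1, 2 and 3, 76, 99 and 280 without 1 h replicates 1, 2 and 3, and 98 and 91 without 3 h replicates 2 and 3. Falls there numbered 10, 7 and 6 without the unirradiated replicates and 14 without 1 h replicate 2. With each library centred on its own median, the median changes of broad domains turned to -0.04 in WT and -0.09 in ASH1L-/- cells. The counts were 75 up and 72 down (background 2.74% and 1.37%) in WT and 39 up and 206 down (background 1.72% and 5.83%) in ASH1L-/- cells.

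EXO1, an exonuclease of mismatch repair, rose by 1.4 on the log2 scale in WT cells (adjusted p = 7.301e-05), with a highest fold enrichment of 11.5, 7.63 and 10.6 without UV, 30.6, 32.1 and 21.4 at 1 h and 25.2, 24.0 and 22.9 at 3 h. LAMB3, a laminin chain, rose by 1.37 and LHX9, a LIM homeobox factor, by 1.35. Immediate early domains rose in 14 of 25 (FOSB 1.31, ATF3 1.07, NR4A1 0.95, DUSP1 0.92, list median 0.60), oncogenes in 8 of 16, ribosomal protein domains in 17 of 58 and zinc finger domains in 63 of 167. The share over all broad domains was 28.3%, which the 29.3% of ribosomal protein domains was near. The H3 lysine 4 methylation list rose in 5 of 10. Among them were the H3 lysine 4 demethylases KDM5A (1.17) and KDM5C (0.87), and HCFC1 (0.74) and KMT2A (0.68), of methyltransferase complexes. KDM6B (0.57), which the list also holds, is a demethylase of another H3 lysine. With libraries centred these 5 lists had 1, 0, 2, 14 and 1 rises, in the same order. TEAD1, a partner of YAP1, fell by 1.18 (adjusted p = 0.01172), a call lost without unirradiated WT replicate 2 (-1.24). ERBIN fell by 0.97 (adjusted p = 0.03198) and PLEKHA5 by 0.89 (adjusted p = 0.002978).

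In ASH1L-/- cells MCL1, an inhibitor of apoptosis, rose by 1.26 (adjusted p = 0.0008564), at 7.998, 5.73 and 5.41 without UV, 11, 13.7 and 17.4 at 1 h and 15.9, 17.3 and 16.4 at 3 h. All irradiated libraries were above all unirradiated ones, while WT libraries overlapped, at 12.9, 15.2 and 20.8, 15.4, 22.9 and 17.1, and 20.4, 12.2 and 18.4 at the same stages. CREBZF rose by 1.36 (adjusted p = 0.01313) and SLC20A1, a phosphate transporter, by 1.18 (adjusted p = 0.01749). Both calls were lost in alternative runs, with adjusted p up to 0.06764 for CREBZF and 0.1334 for SLC20A1. NDUFB4, a subunit of respiratory complex I, fell by 1.003 (adjusted p = 0.001347), at 21.3, 22.6 and 21.9 without UV, 13.7, 17.8 and 11.8 at 1 h and 8.19, 7.88 and 9.19 at 3 h. In WT cells it had 10.9, 12.8 and 13.4 without UV, 19.7, 25.1 and 19.8 at 1 h and 35.2, 27.7 and 28.7 at 3 h, the opposite course. ZNF548 fell by 0.98 in ASH1L-/- cells (adjusted p = 0.003138), at 18.8 ± 1.06, 14.3 ± 4.101 and 6.69 ± 1.31 without UV, at 1 h and at 3 h (SD, n = 3), while WT cells had 8.35 ± 0.413, 16.9 ± 3.14 and 26.3 ± 2.88. QSOX1, a sulfhydryl oxidase, fell by 0.97 (adjusted p = 0.009122), a call lost in alternative runs (adjusted p up to 0.2073, smallest fall 0.39). Among repair genes DDB2 rose by 0.63 and the domain of XPC and LSM3 by 0.79, and SSRP1, a subunit of FACT, rose by 0.85. The repair list had 2 rises in 9 domains, and the H3 lysine 4 methylation list, which holds FACT, had 1 in 10. With libraries centred, each of these 2 lists had 0 rises and 1 fall.

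Without UV, 15 broad domains were more and 314 less enriched in ASH1L-/- than in WT cells, against 1.31% and 7.36% of the regions tested, with medians of -0.33 in broad domains, -0.37 in narrow promoters and -0.17 over all regions. The lower ones numbered 105, 621 and 67 without WT replicates 1, 2 and 3, and 189, 146 and 175 without ASH1L-/- replicates 1, 2 and 3. With libraries centred 90 were more and 196 less enriched (background 5.55% and 4.32%). TEAD1 differed by -2.05 (adjusted p = 0.004036), at 4.67, 5.75 and 3.88 in ASH1L-/- cells against 16.3, 18.1 and 25.3 in WT cells. LYPD1 differed by -1.78 and STMN1, a microtubule regulator, by -1.75. The lower domains included ZEB1 (-1.20), FOXC1 (-1.08), YAP1 (-0.98) and THY1 (-0.72) among 5 of 22 mesenchymal genes, and XPC with LSM3 (-1.21), PLK2 (-1.15), TNFRSF10B (-1.001) and PPM1D (-0.74) among 18 p53 targets. ZNF548 was higher by 1.17 (adjusted p = 0.002362), RPL32, of the large ribosomal subunit, by 0.95 (adjusted p = 0.01817), and LEPR/LEPROT by 0.88 (adjusted p = 0.04381, lost without any of 9 libraries).

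The change of enrichment after UV was lower in ASH1L-/- than in WT cells in 185 broad domains and higher in 12, against 6.9% and 0.524% of regions, in a test added after the data were seen. The share in broad domains was 6.48% for lower ones, near the background.

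Averaged over the 19 lists, XPC peaks covered 23.7% of the DNA of the median broad domain, against 29.0% in narrow promoters and 16.4% in wide regions without a start site (medians over regions). The deposited XPC lists differed in how much they called. Of the 19, 17 held exactly 500000 peaks and the other 2 held 360980 (WT, 1 h, replicate 3) and 326438 (ASH1L-/-, 3 h, replicate 1). They also hold peaks weaker than the p cutoff of 0.01 that the study states, and the setting behind these peaks and the round total is not given in the sources used here. With peaks under a -log10 p of 2 left out, the share of broad-domain DNA under peaks was at most 3.34% in 17 lists, and 13.1% and 37.4% in unirradiated replicate 1 of ASH1L-/- and of WT cells. These 2 libraries stood apart, with 49.5 and 52.5% of broad-domain DNA under XPC peaks of any strength.

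XPC coverage was concentrated at the start site. Within 0.5 kb of it the share was 51.7 ± 30.9, 28.9 ± 8.53 and 41.8 ± 26.5% in ASH1L-/- cells and 51.0 ± 34.0, 31.8 ± 13.9 and 41.9 ± 13.7% in WT cells without UV, at 1 h and at 3 h. Beyond 1 kb it was 24.8 ± 12.4, 14.9 ± 3.30 and 20.5 ± 9.63% in ASH1L-/- cells and 25.2 ± 12.2, 12.3 ± 0.663 and 18.8 ± 4.84% in WT cells (SD, n = 3, and 4 in unirradiated WT cells). The share near the start was above that beyond 1 kb in 18 of 19 lists, and above that near the start of narrow promoters in 19 of 19. Over the whole region broad domains had the lower share in 18 of 19. All 19 lists had more coverage in broad domains than in the genome. Domains differed widely, with 86.6% at TENM4, 78.2% at SLC25A1 and 76.6% at RAB30, and 0.0714% at AMOT, 0.248% at RBMX and 0.555% at RNF113A/NDUFA1, the last 3 all on chromosome X. Chromosome X had a mean share of 11.6% over 69 domains and chromosome 15 had 42.5%, and X was below the autosomes in 19 of 19 lists. The share on X was 0% in WT 1 h replicate 1 and ASH1L-/- 1 h replicate 3, against 17.3 and 14.4% on autosomes. In unirradiated WT replicate 1 it was 36.9%, against 52.8%. XPC peaks were called against XPC-/- cells, and the part of the peak calling in these shares was not tested. The median domain of a zinc finger gene had 16.6%, against 24.1% in the others.

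**Figure D5:**
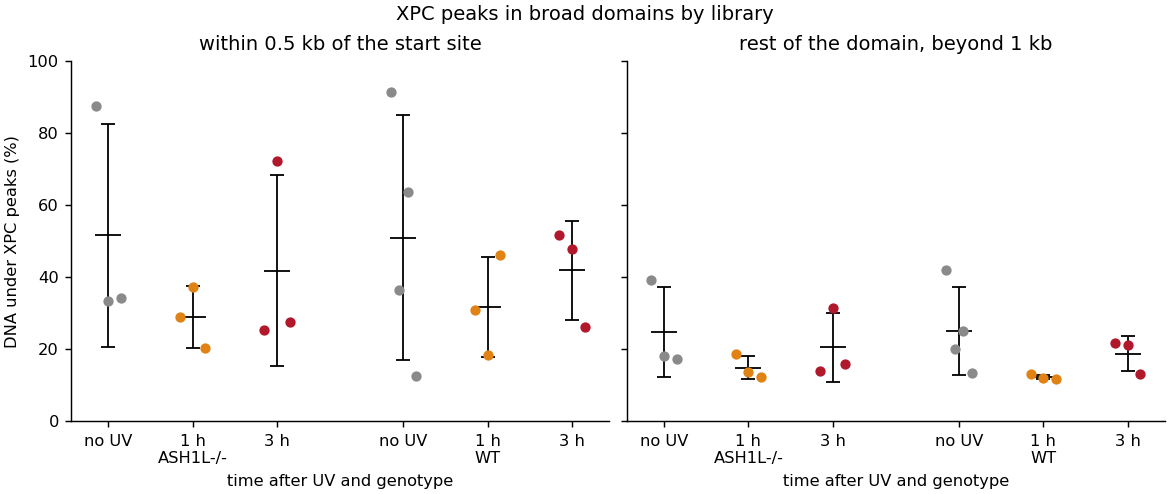
Share (%) of broad-domain DNA under XPC peaks within 0.5 kb of the start site (left) and beyond 1 kb (right) in each of 19 XPC libraries (points), with the mean and SD of each group, ASH1L-/- left of WT. Replicates within a group are widely spread, and the 2 highest unirradiated libraries are replicate 1 of each genotype.

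In the main fit, which had no replicate block, no broad domain passed the test for XPC coverage in any comparison. Over the 116206 regions tested, 0% rose and 0.0155% fell after UV in WT cells, 0% rose and 0.0112% fell in ASH1L-/- cells, and 0.00172% were higher and 0.000861% lower in unirradiated ASH1L-/- than in WT cells. Single times had 0% to 0.00516% of all regions called in either direction (the highest at 3 h in WT cells, upward). At an unadjusted p under 0.05, 0 of 2848 broad domains tested rose and 419 fell in WT cells, 1 rose and 250 fell in ASH1L-/- cells, and 77 were higher and 122 lower between genotypes. The share of all regions at this unadjusted p is not given, so these counts cannot be read as a trait of broad domains. The median change after UV was -0.73 kb in WT and -0.61 kb in ASH1L-/- cells, against -0.05 and -0.03 kb over all regions. With lists scaled to an equal total it was -0.27 kb in WT and -0.33 kb in ASH1L-/- cells. It also rested on single unirradiated libraries, at -0.22 and -1.12 kb in WT cells without WT replicates 1 and 4, and at +0.08, -0.94 and -0.97 kb in ASH1L-/- cells without ASH1L-/- replicates 1, 2 and 3. Replicates of 1 group spread widely, with 49.5, 21.1 and 20.5% of broad-domain DNA under XPC peaks in unirradiated ASH1L-/- libraries and 52.5, 23.2, 33.5 and 13.1% in unirradiated WT libraries. Without unirradiated WT replicate 4, 16 domains fell in WT cells and 10 were lower in ASH1L-/- cells, and without ASH1L-/- unirradiated replicate 3, 3 fell in ASH1L-/- cells. The shares of all regions in these runs are not given, so the same limit holds for these counts. ARID1B, of a SWI/SNF complex, had the smallest p in WT cells, with 4.05, 2.60, 2.64 and 4.64 kb without UV, 0.521, 1.297 and 1.292 kb at 1 h and 0.850, 0.267 and 0.624 kb at 3 h (adjusted p = 0.06713). GLIPR1 had the smallest between genotypes, with 5.38, 3.75 and 2.25 kb in unirradiated ASH1L-/- cells and 1.34, 0.156, 0.093 and 0 kb in unirradiated WT cells (adjusted p = 0.09992). Its H3K4me3 coverage was 4.89, 5.00 and 4.23 kb against 1.25, 1.42 and 1.42 kb (adjusted p = 1.543e-05).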

How the data were processed

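H3K4me3 and XPC ChIP-seq peak lists of U2OS cells were analysed. Of 61 samples, 18 H3K4me3 and 19 XPC lists were used, and the other 24 (18 inputs and 6 libraries of XPC-/- cells) entered as the controls of those lists. Cells were irradiated with 20 J/m2 UV-C, fixed and sonicated, and the DNA was treated with a repair mix before 100 bp single-end sequencing. Per the submitters' processing notes and the study's methods, the authors trimmed reads with Trim Galore 0.6.5, aligned them to hg38 without chromosome Y with BWA 0.7.17-r1188, handled alignments with SAMtools 1.7, Picard and bedtools 2.29.2, and called peaks for each immunoprecipitated library on its own, against pooled controls, using MACS2 2.2.7.1 (stated p cutoff 0.01). H3K4me3 was called as narrow peaks against pooled input, and XPC as broad peaks against pooled XPC immunoprecipitations from XPC-/- cells. The XPC lists also hold peaks above that p, and 17 of them hold exactly 500000 peaks. The setting that gave these is not given in the sources used here. The deposited peak lists give positions, fold enrichment over the control as a ratio, a −log10 p-value and a −log10 q-value, and a score derived from these. MACS2 scales a library to its control, so values are relative enrichments, and a narrow peak call can break 1 domain into several peaks.

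Peaks of the 18 H3K4me3 lists were merged (Python 3.11.15, numpy 2.4.6, pandas 2.3.3), and start sites were those of GENCODE 44 MANE Select or canonical transcripts of protein-coding genes. Each region was given its DNA under peaks in kb, its highest fold enrichment on a log2 scale and its DNA under XPC peaks. Groups were compared with limma 3.58.1 in R 4.3.3 (trend and robust, 1 fit of the 6 group means, no covariate, Benjamini-Hochberg over all regions tested, threshold 0.05). Covered length and XPC were tested where at least 3 lists had a peak, and enrichment where all 18 had one. After UV means the average of 1 h and 3 h minus no UV. The named regions were the widest, those at the width threshold, and those with the largest called changes, by a fixed rule. Members and lists were chosen with earlier results of these data known. Alternatives were an equal total covered length or centring, stricter peaks, a replicate block, only regions in all 18 lists, each library left out, and, chosen after seeing the data, single times and peaks passing at the depth of the shallowest library, whose depths came from pairs of fold enrichment and p-value. The fit was tested on simulated data. Sequences were read from a RefSeq GRCh38.p14 table, and figures were drawn with matplotlib 3.10.9.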

Additional observations from a re-analysis of the deposited data

Results flagged for a closer look

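The response of covered length to UV was lower in ASH1L-/- than in WT cells in 55 broad domains (1.93%) and higher in 3, by the test of the difference itself, against 3% and 0.125% of all regions tested. With lists scaled to an equal total 4 were lower and 14 higher, with no share of all regions given beside these scaled counts. The responses, with the change in ASH1L-/- cells minus that in WT cells as the difference, were as follows. They differed by -6.89 kb at KRTAP10-8/KRTAP10-9 (-0.68 kb in ASH1L-/- cells, 6.21 kb in WT cells), by -5.11 kb at PDLIM4 (-2.60 and 2.51 kb), by -5.08 kb at LEMD2 (-1.20 and 3.88 kb), by -4.38 kb at DYNLL2 (-1.30 and 3.08 kb), by -4.32 kb at ASIC1 (-0.14 and 4.18 kb) and by -1.31 kb at SH3PXD2B (-0.77 and 0.54 kb). ZNF814 differed by 1.77 kb (2.26 and 0.48 kb), NUP42 by 1.1 kb (1.48 and 0.38 kb) and ZNF384 by 0.998 kb (0.89 and -0.11 kb). PDLIM4 was the one of these 9 domains called in both genotypes and in opposite directions.

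The response of the highest fold enrichment, on the log2 scale, was lower in ASH1L-/- cells in 185 broad domains (6.48%) and higher in 12, against 6.9% and 0.524% of all regions tested, so the share of lower ones was near the background. It differed by -2.30 at ZNF548 (-0.98 in ASH1L-/- cells, 1.33 in WT cells), -2.05 at NDUFB4 (-1.003 and 1.05), -1.65 at LHX9 (-0.30 and 1.35), -1.47 at EXO1 (-0.07 and 1.4) and -1.25 at LAMB3 (0.12 and 1.37), and by 2.01 at TEAD1 (0.83 and -1.18), 1.14 at MCL1 (1.26 and 0.12) and 1.14 at PLEKHA5 (0.24 and -0.89). ZNF548 and NDUFB4 were called in both genotypes, down in ASH1L-/- cells and up in WT cells.

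GLIPR1 had one unirradiated WT library far from the other 3 in XPC coverage, replicate 1 at 1.34 kb against 0.156, 0.093 and 0 kb, a gap of 0.884 of the whole range. The threshold for such a gap is passed by chance in about 5% of groups.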

How the results depend on the processing

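The number of broad domains was 4703, 1775, 757 and 335 at widths of 4, 6, 8 and 10 kb, 1568 by mean covered length and 1616 at a fold enrichment of 5. Below, counts are of gains, then losses, among broad domains. They stand without the shares of all regions, so they cannot be read as a trait of broad domains. With lists scaled to an equal total, covered length after UV gave 6 and 68 in WT cells (median -1.16 kb) and 33 and 4 in ASH1L-/- cells (median -0.187 kb), unirradiated ASH1L-/- against WT cells 30 and 16, and the difference between responses 14 and 4. At a fold enrichment of 5, WT cells had 223 gains, ASH1L-/- cells 12 losses, the genotypes 21 and 69 (median -0.0497 kb, LBH -1.57 kb) and the responses 23 and 27 (NUP42 -0.0308 kb). The time points alone gave 313 (1 h) and 367 (3 h) gains in WT cells, 84 and 0 at 1 h in ASH1L-/- cells, and 12 losses at 3 h. Regions in all 18 lists gave 754 and 7 in ASH1L-/- cells. A q threshold gave 7 higher responses and the shallowest depth 5.

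Centred libraries gave, for enrichment, 75 and 72 in WT cells (median -0.0374), 39 and 206 in ASH1L-/- cells (median -0.0903), and 90 and 196 between genotypes. WT cells had 2 falls at 1 h and 486 and 25 at 3 h, and ASH1L-/- cells 755 and 7 at 1 h and 24 and 100 at 3 h (median -0.0887). In these cases the cause was not tested.

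The replicate block gave 9 higher and 91 lower responses, and 17 falls in WT cells and 3 lower domains between genotypes for XPC. The labels tie no number to a shared batch, and not every same-numbered pair correlated, so the numbers were not taken to pair the samples. As a hint from the data, the same-number correlation of covered length averaged 0.112 (-0.0564 for other numbers) and was above 0.1 in 28 of 45 pairs of libraries, and 12 of 18 libraries correlated best with their own number.

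Leaving out 1 library at a time gave 141 to 1128 gains in WT cells, 76 to 453 gains and 1 to 5 losses in ASH1L-/- cells, 26 to 102 longer and 3 to 11 shorter domains between genotypes, and 1 to 9 higher and 26 to 132 lower responses. For enrichment it gave 204 to 1019 rises and 5 to 9 falls in WT cells, 41 to 280 and 6 to 29 in ASH1L-/- cells, and 3 to 21 higher and 67 to 621 lower between genotypes. For XPC it gave 0 to 16 falls in WT cells, 0 to 3 in ASH1L-/- cells, and 0 to 2 higher and 0 to 10 lower between genotypes. The median over broad domains changed sign for the difference in covered response (-0.191 to 0.0912 kb), for XPC in ASH1L-/- cells (-0.970 to 0.0842 kb) and for XPC between genotypes (-0.716 to 0.482 kb). With 3 libraries a group, and 2.57 to 4.40 fragments over an average base, short peaks and small changes may be missed, and the ends of kept peaks were not shortened when depth was equalised.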
